A study of Homo sapiens with 480 samples.

Results

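Cells that stayed TRA-1-60 negative at day 16 of reprogramming were compared with the BJ fibroblasts from which they started. BJ is an established line of human neonatal foreskin fibroblasts. The negative cells were BJ cells taken 16 days after induced viral expression of OSKM (the factors OCT4, SOX2, KLF4 and MYC) and labelled negative for TRA-1-60, a surface epitope of pluripotent stem cells. The starting cells were labelled wild type, with no factors. Both groups were single cells captured on microfluidic C1 chips, with cDNA libraries of polyadenylated RNA. The labels give serum medium for expanding the fibroblasts, and the medium after induction and the way negative cells were separated are not given in the sources used here. All columns of the 2 tables were used, and a cell was kept when at least 2000 genes reached a value of 1. This left 85 of 96 TRA-1-60 negative cells and 92 of 96 BJ cells, or 177 of the 480 cells of the whole series. Cells of day 2 (96 kept), day 8 (92 kept) and the TRA-1-60 positive fraction of day 16 (95 kept) served as a scale. The labels name no separate cultures, so each group counts as 1 culture and its cells are not replicates. No difference between groups was therefore tested, and no spread between cultures is known.

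TRA-1-60 is carried by podocalyxin, the product of PODXL, and sorting for it separates cells close to pluripotency from those that have not reached it. Most cells that receive the factors never become pluripotent. Cultured dermal fibroblasts make fibrillar collagens, elastic microfibrils and proteoglycans, carry contractile actin bundles, and keep dividing until CDK inhibitors stop the cell cycle.

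A level is the mean over kept cells of FPKM (fragments per kilobase of transcript, scaled to mapped fragments) after each cell was rescaled to a total of 1000000. A gene was measured where its level was at least 1 in either group. It is called higher or lower where the log2 ratio of the levels, each plus a pseudocount of 1, was at least 1 in size and the mean of log2(value + 1) differed in the same direction. Ratios of low genes are understated on this scale. The tables hold no read counts, so depth per cell is unknown; the median kept cell had 5871 genes at 1 or more in the negative fraction and 5678 in BJ. In 11 of the 92 BJ cells and in 0 of the 85 negative cells, 1 gene held over 10% of the total. Small RNA genes together held over 10% of the total in 5 BJ cells and 0 negative cells. Lists are counted over their measured members, with the number listed where it is larger.

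Some genes differed between sets of tables, and many of these differences did not follow the order of the days. At 10-fold or more, 29 genes were higher in BJ, day 2 and the positive fraction than in day 8 and the negative fraction. A further 9 genes were higher in day 2 and the negative fraction than in the others, among them RPL21, RPL36A, RPL7, RPL9 and RPS27, which encode ribosomal proteins, and the pseudogene RPL21P28. Another 7 were higher in day 8 and the negative fraction. In 18 genes at least 80% of cells of some tables and at most 25% of others held the gene, 15 of them high in BJ, day 2 and the positive fraction alone. Genes of these sets are pointed out below as table-patterned. The sets were drawn without regard to the days. The label alone therefore does not tell a gene apart from one that changed over the days. Whether the tables were made in the same way is not given in the sources used here, and the part of this in the results was not tested.

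The TRA-1-60 negative cells were not equal to BJ cells. Of 13163 measured genes, 4136 were called higher in the negative cells than in BJ (31.4%) and 1710 lower (13%). The median log2 ratio over all measured genes was 0.51, so that a list is read against this value and not against 0. Counts of called members of a list are likewise read against the shares of 31.4% and 13%. With FPKM as deposited this median was 0.25, and the calls split into 3002 higher and 2146 lower, so that 58.3% of calls were higher in place of 70.7%. At day 2, 12.2% of measured genes were higher and 12.1% lower than in BJ, and at day 8 the shares were 15.2% and 15%. In the positive fraction 34.4% of genes were higher and 13.6% lower than in BJ. Among genes with a level of at least 10, 76.1% lay within 2-fold of BJ at day 2, 70.9% at day 8, 55.1% of 7191 in the negative fraction and 47.5% in the positive fraction. All 4 comparisons share the BJ cells.

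Some of the most abundant RNA was nevertheless close in level. In at least 90% of cells of both groups 986 genes were present, and 276 of them had levels less than 1.2-fold apart. The 10 most abundant of these were 5 ribosomal protein genes (RPLP1, RPS19, RPS6, RPLP0 and RPL8) and ACTB (beta-actin), CALM2 (calmodulin), ATP5E (an ATP synthase subunit), PPIB (a cyclophilin of the endoplasmic reticulum) and B2M (beta-2 microglobulin). ACTB ranged from 2188 to 20844 (median 9826) in negative cells and from 614 to 24529 (median 9482) in BJ cells, with levels of 9790.2 in negative cells and 9716 in BJ; the cells of both groups lay in the same range. RPLP1 had levels of 11074 in negative cells and 11055 in BJ. Other genes of the cell body differed in both directions. EEF1A1, of the housekeeping list, was called higher, with 83 of 85 negative cells above every BJ cell. TMSB10 and VIM were lower. TMSB10, which encodes an actin-binding thymosin, ranged from 1576 to 8148 (median 4373) in negative cells and from 5513 to 52520.1 (median 22754) in BJ cells, a level 5.37-fold lower in negative cells, and 69 of 85 negative cells lay below every BJ cell. VIM, the vimentin of mesenchymal intermediate filaments, was present in every cell of both groups at levels of 3223 in negative cells and 7607 in BJ.

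Each cell was also correlated with the mean profile of each group over 8583 genes, leaving the cell out of its own group's mean. Every one of the 85 negative cells was most like the mean of the other negative cells (median Pearson r 0.736). The next most like mean was that of day 2 for 49 negative cells, of day 8 for 35 and of BJ for 1. This order turned with Spearman's correlation, by which day 8 was next for 49 cells and day 2 for 35, so the data do not set one of these days nearer. Without the genes that split the tables, day 2 was next for 62 cells and day 8 for 22, and over genes with a mean of at least 100 for 66 and 18. Their median r was 0.629 with BJ, 0.648 with day 2, 0.650 with day 8 and 0.557 with the positive fraction. For BJ cells the median r was 0.659 with the negative mean and 0.779 with the BJ mean, and day 2 was the nearest other mean of all 92 BJ cells. The points share genes, depth and 1 table per group, so these correlations describe the cells and carry no p-value.

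**Figure D1:**
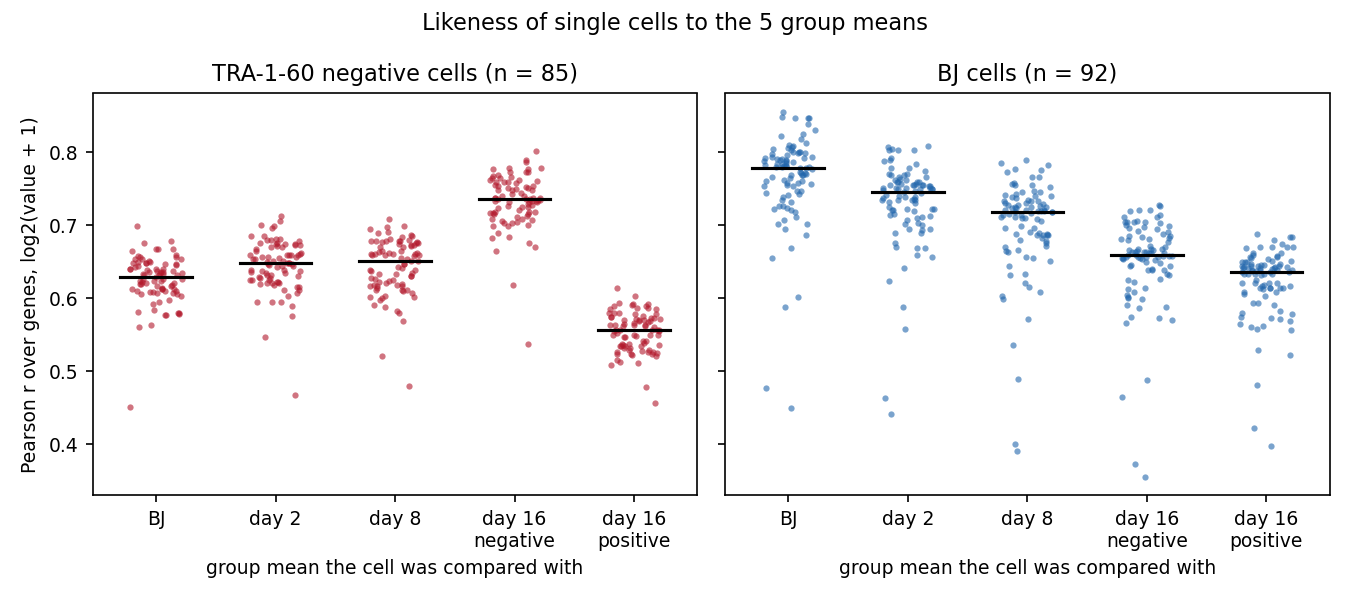
Pearson correlation over genes of log2(value + 1) between each kept cell and the 5 group means, for 85 TRA-1-60 negative cells (left) and 92 BJ cells (right); each point is a cell and lines are medians. Negative cells lay highest against their own mean (median 0.736) and at similar values against BJ, day 2 and day 8 (medians 0.629, 0.648 and 0.650).

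The fibroblast genes COL1A1, COL1A2, COL3A1 and THY1 were present in every kept cell of both groups. COL1A1 and THY1 were chosen after their values were seen. Other fibroblast genes, given below, differed in both directions. Of 6 measured fibrillar collagen genes (7 listed), 3 were higher in negative cells than in BJ and 0 lower (median log2 ratio 0.99). The share called higher was 50%, beside 31.4% over all genes. COL3A1, a chain of the fine fibrils of skin, ranged from 130.1 to 2582 (median 932) in negative cells and from 3.13 to 1626 (median 110.3) in BJ cells. All 85 negative cells lay above the BJ median and 9 above every BJ cell, and the level was 5.02-fold higher in negative cells. COL5A2 and COL5A1, chains that set fibril width, were 2.83-fold and 2.16-fold higher in negative cells. COL5A1 was not called with FPKM as deposited, and neither was called when all 96 cells of each group were used. COL1A1, a chain of the main skin collagen, had levels of 1162 in negative cells and 635 in BJ, and COL1A2 had 3401 and 1917; neither difference reached the call. The days between were lower: COL1A1 was at 264 at day 2 and 45.6 at day 8, and at 7.75 in the positive fraction. At day 8, 5 of the 6 fibrillar collagens were lower than in BJ.

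The other collagens were also higher, with 13 of 17 measured genes (18 listed) higher in negative cells and 0 lower (median 1.55). The share called higher was 76.5%, beside 31.4% over all genes. COL6A3, a chain of the beaded filaments around cells, ranged from 45.6 to 2366 (median 846) in negative cells and from 10.4 to 1194 (median 164) in BJ cells, a level 4.1-fold higher in negative cells. The cells overlapped, with 24 of 85 negative cells above every BJ cell. COL4A2 of basement membranes was 3.19-fold higher, and COL7A1 of anchoring fibrils 5.2-fold higher. COL21A1 was present in 41 of 85 negative cells and 1 of 92 BJ cells.

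Of 14 surface markers of fibroblasts, 9 were higher (64.3%) and 2 lower (14.3%) in negative cells (median 1.28). Over all genes these shares were 31.4% and 13%. DPP4, a peptidase that marks papillary fibroblasts, was present in 70 of 85 negative cells, at 0 to 486 (median 39.4), and in 3 of 92 BJ cells, at 0 to 12.5 (median 0); 61 negative cells lay above every BJ cell. NT5E, the surface enzyme that makes adenosine, was 3.38-fold higher in negative cells, and PROCR, the protein C receptor, 2.99-fold higher. CD248 (endosialin) went the other way, with levels of 28.5 in negative cells and 134 in BJ, and so did ANPEP (a surface aminopeptidase), with 16 and 35.5, although its call was lost with a pseudocount of 10. THY1, the common fibroblast antigen, was not called, at 222 in negative cells and 265 in BJ.

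Of 24 measured mesenchymal transcription factors (26 listed) 7 were higher (29.2%) and 3 lower (12.5%), shares near the 31.4% and 13% over all genes, with a median of 0.15. TCF4, a factor of the E-protein family, ranged from 8.41 to 257 (median 92.6) in negative cells and from 0 to 956 (median 9.19) in BJ cells. Its log2 ratio was 1.62, and -0.31 with FPKM as deposited. RUNX1 was 3.3-fold higher in negative cells and ZEB1, a repressor of epithelial genes, 2.6-fold. TWIST1 was lower, with 22 of 85 negative cells and 57 of 92 BJ cells holding it and medians of 0 in negative cells and 5.08 in BJ; 1 BJ cell reached 3228. FOXF1 was 6.47-fold lower in negative cells. PRRX1 was not called, at 25.1 in negative cells and 27 in BJ, nor was TWIST2, at 76.6 and 82.6. Of 16 measured HOX genes (39 listed), which mark position along the body, 4 were higher (25%) and 3 lower (18.75%), near the shares over all genes.

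Contractile genes were lower or not called for the most part. Of 25 contractile and actin-binding genes 6 were lower in negative cells (24%), 2 higher (8%) and 17 not called (median -0.16). Over all genes 13% were lower and 31.4% higher. TAGLN, the smooth muscle protein transgelin, ranged from 0 to 6086 (median 986) in negative cells and from 14.8 to 11468 (median 2356) in BJ cells, a level 2.32-fold lower in negative cells, with the cells of both groups overlapping. The tropomyosin gene TPM1 was 2.2-fold lower, and CNN1 (calponin) was present in 4 of 85 negative cells and 45 of 92 BJ cells and was not called with a pseudocount of 10. ACTA2, the smooth muscle actin of myofibroblasts, was not called, with medians of 96.6 in negative cells and 95.7 in BJ. GSN, the actin-severing gelsolin, stood against its list: it ranged from 382 to 4069 (median 1514) in negative cells and from 0 to 997 (median 48) in BJ cells, a level 16.4-fold higher in negative cells. Of the 85 negative cells 71 lay above every BJ cell.

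**Figure D2:**
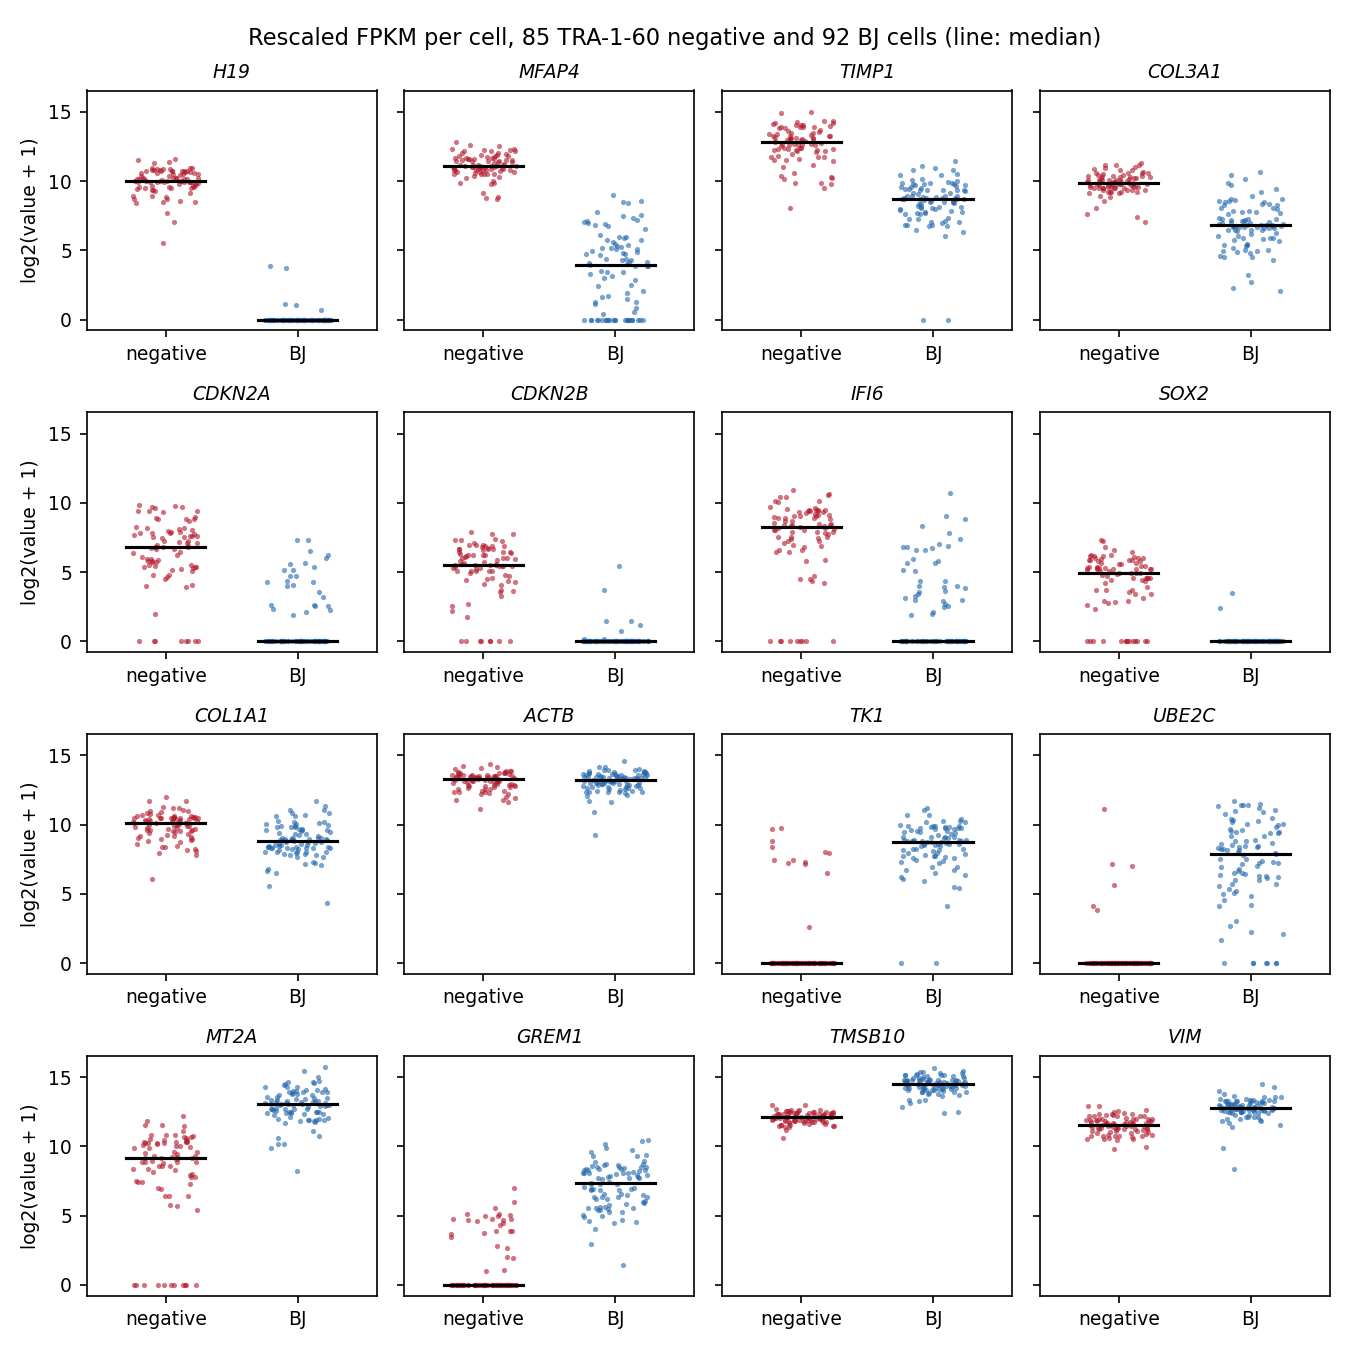
Rescaled FPKM per cell on the log2(value + 1) scale for 16 genes in 85 TRA-1-60 negative cells (red, left) and 92 BJ cells (blue, right); lines are medians. H19 and MFAP4 were high in the negative cells, TK1, UBE2C and GREM1 were near 0 in most of them, and ACTB was alike in both.

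Matrix genes beyond the collagens were higher too. Over 6 matrix lists, collagens included, 57 of 105 measured genes (110 listed) were higher in negative cells and 7 lower, a median of 1.19 beside 0.51 for all genes. The share called higher was 54.3%, beside 31.4% over all genes. Together these genes took a median of 3.27% of a negative cell's total (1.06% to 6.97%), against 1.11% of a BJ cell's (0.260% to 3.08%). The ranges overlapped widely. The BJ median lay above the lowest negative cell, and the highest BJ cell lay just below the negative median. In elastic fibres 10 of 17 genes were higher and 0 lower (median 1.11). MFAP4, a microfibril protein of elastic fibres, was present in every negative cell, at 426 to 7410.3 (median 2189.7), and in 66 of 92 BJ cells, at 0 to 509 (median 14). Of the 85 negative cells 82 lay above every BJ cell, and the level was 53.6-fold higher in negative cells. At day 8 its level was 72.1 and in the positive fraction 84.1. MFAP5, another microfibril protein, was 18.3-fold higher in negative cells than in BJ, and MFAP2 8.18-fold. FBN2, the fibrillin of growing tissue, was 12.5-fold higher in negative cells. ELN, elastin itself, was not called, at 39.3 in negative cells and 19.5 in BJ.

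Proteoglycans, which space and bind collagen fibrils, had 10 of 16 measured genes (17 listed) higher and 1 lower (median 2.33). The share called higher was 62.5%, beside 31.4% over all genes. ASPN (asporin) was present in 82 of 85 negative cells, at 0 to 993 (median 334), and in 12 of 92 BJ cells, at 0 to 773 (median 0); a few BJ cells reached the negative range. LUM (lumican) was 4.03-fold higher in negative cells, DCN (decorin) 12.4-fold and VCAN (versican) 8.55-fold. OMD (osteomodulin) was present in 57 of 85 negative cells and 0 of 92 BJ cells. SRGN, the serglycin of secretory granules, was the lower member: it was listed at 0 in every negative cell, which allows a share of up to 3.53%, and was present in 51 of 92 BJ cells.

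Among 20 measured adhesive and matricellular genes (22 listed) 8 were higher (40%) and 1 lower (5%), beside 31.4% and 13% over all genes. The laminin genes led, with LAMB1 at 19.4 to 558 (median 158) in negative cells and 0 to 275 (median 13.4) in BJ cells. All negative cells lay above the BJ median of LAMB1. LAMA4 was present in 76 of 85 negative cells and 10 of 92 BJ cells. Fibronectin was not called: FN1 had levels of 847 in negative cells and 1181 in BJ. THBS1 (thrombospondin) was 2.99-fold lower in negative cells.

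The enzymes that cut and cross-link matrix, with their inhibitors, split 13 higher (44.8%) to 5 lower (17.2%) of 29. Over all genes the shares were 31.4% and 13%. The higher members included TIMP1, SERPINE2 and the plasminogen activator PLAT. TIMP1, an inhibitor of metalloproteinases, ranged from 263 to 33056 (median 7274) in negative cells and from 0 to 2839.8 (median 422) in BJ cells, a level 15.5-fold higher in negative cells. Of 85 negative cells 72 lay above every BJ cell. SERPINE2, which inhibits thrombin and plasminogen activators, was 9.19-fold higher, and PLAT 19.8-fold. P4HA2, which hydroxylates collagen chains, was 3.15-fold higher in negative cells. The lower members included the metalloproteinase MMP3, listed at 0 in every negative cell and present in 47 of 92 BJ cells, and MMP1, present in 17 of 85 negative cells and 63 of 92 BJ cells. The lysyl oxidase LOXL2 was 5.26-fold lower in negative cells and LOX 2.42-fold lower.

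First in the ranking of higher genes was H19, an imprinted non-coding RNA next to IGF2. H19 was present in all 85 negative cells, at 44.2 to 3142 (median 1045), and in 4 of 92 BJ cells, at 0 to 13.6 (median 0). The 2 groups did not overlap. Over the days its level was 0.308 in BJ, 156 at day 2, 715 at day 8, and at day 16 1174 in the negative and 128 in the positive fraction. IGF2, the growth factor, was present in all 85 negative cells, at 3.44 to 825 (median 89.7), and in 14 of 92 BJ cells, at 0 to 7.73 (median 0); 84 of 85 negative cells lay above every BJ cell. Of 11 measured genes of the IGF pathway 7 were higher in negative cells (63.6%, beside 31.4% over all genes) and 1 lower. IGFBP5 and IGFBP6, binding proteins of the IGFs, were 10.1-fold and 9.34-fold higher in negative cells. IGFBP3, the main carrier in serum, was the lower one, with medians of 2.3 in negative cells and 189 in BJ.

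Other genes at the top of the ranking had varied roles. PTHLH, the parathyroid hormone-like hormone, was present in 82 of 85 negative cells, at 0 to 4167 (median 353), and in 1 of 92 BJ cells, and 77 negative cells lay above that cell. CRABP2 carries retinoic acid in the cell and STRA6 takes up retinol. CRABP2 was 47.3-fold higher in negative cells, and STRA6 was present in 81 of 85 negative cells and 6 of 92 BJ cells. TGM2, a transglutaminase that cross-links proteins, was 91.4-fold higher in negative cells, and ASS1, an enzyme of arginine synthesis, 11.4-fold. PI16 (peptidase inhibitor of adventitial fibroblasts) was present in 77 of 85 negative cells and 0 of 92 BJ cells, which allows a BJ share of up to 3.26%. CD24, a surface glycoprotein, was present in 75 of 85 negative cells and 3 of 92 BJ cells, and in 12.5% of cells at day 2, 83.7% at day 8 and 100% of the positive fraction. RGS2, RPL21P28 and RPL36A also ranked here, but RGS2 was at 63.4 at day 2 and 1134 at day 8, and RPL21P28 was at 4059.9 at day 2 and 10.5 at day 8. RPL36A was at 819 and 20 on these days. CD24 and these 3 genes are table-patterned, but for CD24 and RGS2 this pattern cannot be told apart from a change over the days.

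Genes of the cell cycle were the lowest list. Of 30 genes of G2 and M phase, all 30 were lower in negative cells than in BJ and 0 higher (median -3.48), beside 13% lower over all genes. A cell held a median of 3 of these 30 genes in the negative fraction (0 to 29) and 25.5 in BJ (4 to 30). At least 10 of them were present in 5 of 85 negative cells (5.88%, exact 95% binomial interval 1.94% to 13.2%) and in 89 of 92 BJ cells (96.7%, 90.8% to 99.3%). At day 2 this share was 83.3%, at day 8 83.7% and in the positive fraction 98.9%. Intervals of shares cover counting error only. UBE2C, a ubiquitin-conjugating enzyme of the anaphase-promoting complex, was present in 6 of 85 negative cells, at 0 to 2269.7 (median 0), and in 85 of 92 BJ cells, at 0 to 3272 (median 236). The groups overlapped in a few negative cells with UBE2C and a few BJ cells without it. CDC20, which activates that complex, was 28.6-fold lower in negative cells. PTTG1 (securin) was 13.1-fold lower and BIRC5 (survivin) 22.5-fold lower. MKI67, the usual marker of dividing cells, was present in 5 of 85 negative cells and 70 of 92 BJ cells.

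Replication genes were lower too, with 25 of 30 S phase genes lower in negative cells and 0 higher (median -2.72). TK1, the thymidine kinase of dividing cells, was present in 13 of 85 negative cells, at 0 to 848 (median 0), and in 90 of 92 BJ cells, at 0 to 2397 (median 437); 21 BJ cells lay above every negative cell. RRM2, a subunit of ribonucleotide reductase, was 55.3-fold lower in negative cells, and TYMS, thymidylate synthase, 18.4-fold. GINS2, part of the replicative helicase, was present in 3 of 85 negative cells and 68 of 92 BJ cells. PCLAF, which binds the replication clamp, was 48-fold lower, and CENPM of the kinetochore 41.7-fold. PCNA, the clamp itself, was the least lowered of the 25 by mean log2: it was present in 68 of 85 negative cells and 87 of 92 BJ cells, at levels of 153 and 345. At day 8, 2 of the 30 S phase genes and 3 of the 30 G2 and M genes were lower than in BJ.

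The 5 negative cells with at least 10 mitotic genes held arrest genes and factors too: all 5 held CDKN1A, CDKN2A, CDKN2B, SOX2 and COL1A1, as did 78, 72, 72, 66 and 80 of the other 80 negative cells. Their matrix share was 1.97% to 3.38% of the cell's total (median 2.61%), against 1.06% to 6.97% (median 3.32%) in the other 80 negative cells. Of the 5, 2 cells held at least 20 of the 30 genes.

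**Figure D3:**
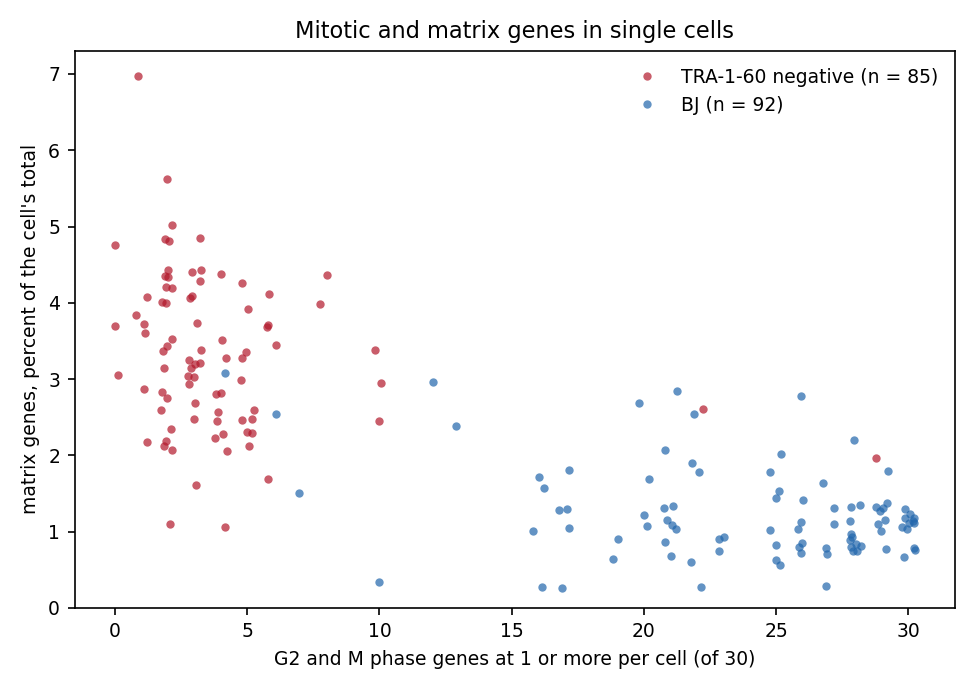
Number of the 30 G2 and M phase genes at 1 or more (x axis, points spread slightly) against the summed share of matrix genes in the cell's total (y axis, percent), 1 point per cell. Negative cells (red) lay at few mitotic genes and a high matrix share (medians 3 and 3.27%) and BJ cells (blue) at many and a lower share (medians 25.5 and 1.11%).

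Many mitotic promoters hold the cell cycle homology region (CHR), an element bound by complexes that silence these genes in resting cells. The letters TTTGAA were searched on both strands from 250 bases before to 50 bases after each gene's start in RefSeq promoters of GRCh38.p14. They were found in 16 of the 25 matched G2 and M promoters (64%), in 1 of 27 S phase promoters (3.7%) and in 15.4% of all 27305 promoters. A match is a description of the letters and not of a bound site. The 2 lower genes with the largest differences that held the letters are shown, with the letters of both strands in capitals (CDC20 at chr1:43358731-43359030, plus strand; CCNB2, a mitotic cyclin, at chr15:59104896-59105195, plus strand).
CDC20: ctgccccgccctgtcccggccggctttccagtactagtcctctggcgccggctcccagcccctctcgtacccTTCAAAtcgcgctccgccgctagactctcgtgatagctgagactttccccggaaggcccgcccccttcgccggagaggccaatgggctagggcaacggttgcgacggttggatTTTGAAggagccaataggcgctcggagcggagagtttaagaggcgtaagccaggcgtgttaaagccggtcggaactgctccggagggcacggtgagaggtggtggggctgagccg
CCNB2: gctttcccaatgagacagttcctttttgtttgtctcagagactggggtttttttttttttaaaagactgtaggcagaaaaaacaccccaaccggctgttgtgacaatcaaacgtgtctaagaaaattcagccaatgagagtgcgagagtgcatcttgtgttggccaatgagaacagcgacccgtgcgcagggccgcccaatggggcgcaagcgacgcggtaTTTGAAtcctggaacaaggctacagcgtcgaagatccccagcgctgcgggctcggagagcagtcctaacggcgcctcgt
CCNB2 was present in 7 of 85 negative cells and 86 of 92 BJ cells, and its level was 21.2-fold lower in negative cells.

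Inhibitors of the cyclin-dependent kinases were mostly higher. Of 8 genes 5 were higher in negative cells (62.5%) and 1 lower (12.5%), with a median of 1.70. Over all genes these shares were 31.4% and 13%. CDKN2A, whose products restrain the kinases of G1 and stabilise p53, was present in 77 of 85 negative cells, at 0 to 926 (median 110.3), and in 27 of 92 BJ cells, at 0 to 159 (median 0). Its level was 19.5-fold higher in negative cells, 34 of which lay above every BJ cell. CDKN2B, the neighbouring gene with a related product, was present in 77 of 85 negative cells, at 0 to 239.9 (median 45.4), and in 5 of 92 BJ cells, at 0 to 41.7 (median 0). Of the negative cells 49 lay above every BJ cell. Over the days the level was 0.648 in BJ, 0.231 at day 2, 1.31 at day 8, and at day 16 61.3 in the negative and 2.2 in the positive fraction. CDKN1A, the inhibitor induced by p53, ranged from 0 to 2731 (median 231) in negative cells and from 0 to 924 (median 13.4) in BJ cells, a level 5.36-fold higher in negative cells. All 3 genes were present together in 70 of 85 negative cells (82.4%, 72.6% to 89.8%) and 1 of 92 BJ cells (1.09%, 0.0275% to 5.91%). They were together in 0 of 96 cells at day 2, 8 of 92 at day 8 and 2 of 95 positive cells. No negative cell lacked all 3, whereas 15 of 92 BJ cells did.

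The other inhibitors differed less. CDKN1B was present in 25 of 85 negative cells and 18 of 92 BJ cells, and its call was lost in 8 of 13 alternatives. CDKN1C was present in 12 of 85 negative cells and 4 of 92 BJ cells, and was not called on the mean of log2 values or with a pseudocount of 10. CDKN2C had levels of 16.8 in negative cells and 29.2 in BJ, and CDKN2D 13 and 13.2; neither was called. CDKN3, despite its name a phosphatase made with the mitotic genes, was 9.75-fold lower in negative cells.

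Of the p53 targets, 15 of 22 were higher and 0 lower in negative cells (median 1.55), beside 31.4% higher over all genes. GDF15, a stress cytokine, was present in 65 of 85 negative cells, at 0 to 1311 (median 84.4), and in 23 of 92 BJ cells, at 0 to 723 (median 0), so that the groups overlapped. The polo-like kinases PLK2 and PLK3 were 8.21-fold and 6.95-fold higher in negative cells. ZMAT3, an RNA-binding protein of the p53 response, was present in 83 of 85 negative cells and 43 of 92 BJ cells. Among 15 genes chosen as markers of senescence or quiescence, 4 were higher (26.7%) and 6 lower (40%, beside 13% over all genes), with a median of 0.08. The list was not divided by the direction expected of each marker, so these values do not tell whether either state was present. TXNIP, GLB1, RBL2 and FOXO1 were the higher members, and each lost its call under some alternative. HMGB2, HMGA1, GAS6, HMGB1, KLF2 and LMNB1 were the lower ones, of which GAS6 and HMGB1 also lost theirs under some alternative. The chromatin proteins HMGB2, HMGA1 and HMGB1 were 8.15-fold, 2.93-fold and 2.13-fold lower in negative cells. HMGB1 was not called when all 96 cells of each group were used. TXNIP, an inhibitor of thioredoxin, was 2.3-fold higher, but its log2 ratio was -0.58 with FPKM as deposited.

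Interferon-stimulated genes had the most members called higher of any list, but the list is long. Their share of 77.8% was near those of the other collagens (76.5%) and cholesterol genes (73.9%), beside 31.4% over all genes. Of 45 genes 35 were higher in negative cells and 2 lower (median 2.04), with 8 to 41 of them present per negative cell (median 23) and 5 to 35 per BJ cell (median 13). IFI27, a small mitochondrial protein of the interferon response, was present in 56 of 85 negative cells, at 0 to 2061 (median 138), and in 1 of 92 BJ cells, at 0 to 26.5 (median 0); 53 negative cells lay above every BJ cell. IFI6 ranged from 0 to 1990.4 (median 307) in negative cells and from 0 to 1655 (median 0) in BJ cells, and 76 of 85 negative cells lay above the BJ median. MX1, an antiviral GTPase, was present in 50 of 85 negative cells and 3 of 92 BJ cells. OAS1, which senses double-stranded RNA, was present in 47 of 85 negative cells and listed at 0 in all BJ cells, and is table-patterned. ISG15, a ubiquitin-like modifier, was 5.64-fold higher in negative cells. IFITM2 went against its list, at 335 in negative cells and 1095 in BJ, and so did IFI30, a lysosomal reductase present in 8 of 85 negative cells and 15 of 92 BJ cells, which was not called on the mean of log2 values.

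The list had no steady course over the days. At day 2, 24 of 43 genes were higher than in BJ and 2 lower; at day 8, 4 of 37 were higher and 11 lower. In the positive fraction 8 of 40 were higher and 16 lower. IFI6 was at 49.7 in BJ, 470.1 at day 2, 11 at day 8, and at day 16 at 411 in the negative and 1.69 in the positive fraction. Day 2 and the negative fraction are also the tables with the higher ribosomal protein genes named above, and the part of that in the interferon genes was not tested.

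The interferon-stimulated response element (ISRE) is the site bound by the transcription factor complex that interferon activates. Its core was searched as GAAA, any 2 bases and GAAA on either strand, in the same window around the start. It was found in 22 of the 35 matched promoters of the list (62.9%), in 0 of 25 G2 and M promoters and in 3.65% of all 27305 promoters. The 2 higher genes with the largest differences that held the letters are shown, with the element in capitals (IFI27 at chr14:94110486-94110785, plus strand; IFI6 at chr1:27672143-27672442, minus strand, both GRCh38.p14 from RefSeq).
IFI27: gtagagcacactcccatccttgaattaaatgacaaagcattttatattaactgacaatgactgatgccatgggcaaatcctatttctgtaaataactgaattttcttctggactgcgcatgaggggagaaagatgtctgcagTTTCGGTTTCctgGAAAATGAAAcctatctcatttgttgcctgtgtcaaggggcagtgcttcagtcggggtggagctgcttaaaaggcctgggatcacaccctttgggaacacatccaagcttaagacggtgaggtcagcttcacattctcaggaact
IFI6: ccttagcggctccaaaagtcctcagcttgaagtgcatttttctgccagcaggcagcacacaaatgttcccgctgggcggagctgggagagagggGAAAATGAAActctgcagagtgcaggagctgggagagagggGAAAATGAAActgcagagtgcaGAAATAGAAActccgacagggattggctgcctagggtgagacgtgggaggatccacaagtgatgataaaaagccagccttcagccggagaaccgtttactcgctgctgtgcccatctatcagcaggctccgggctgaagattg
The first promoter holds 2 matches and the second 3. IFI6 was present in 76 of 85 negative cells and 39 of 92 BJ cells.

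**Figure D4:**
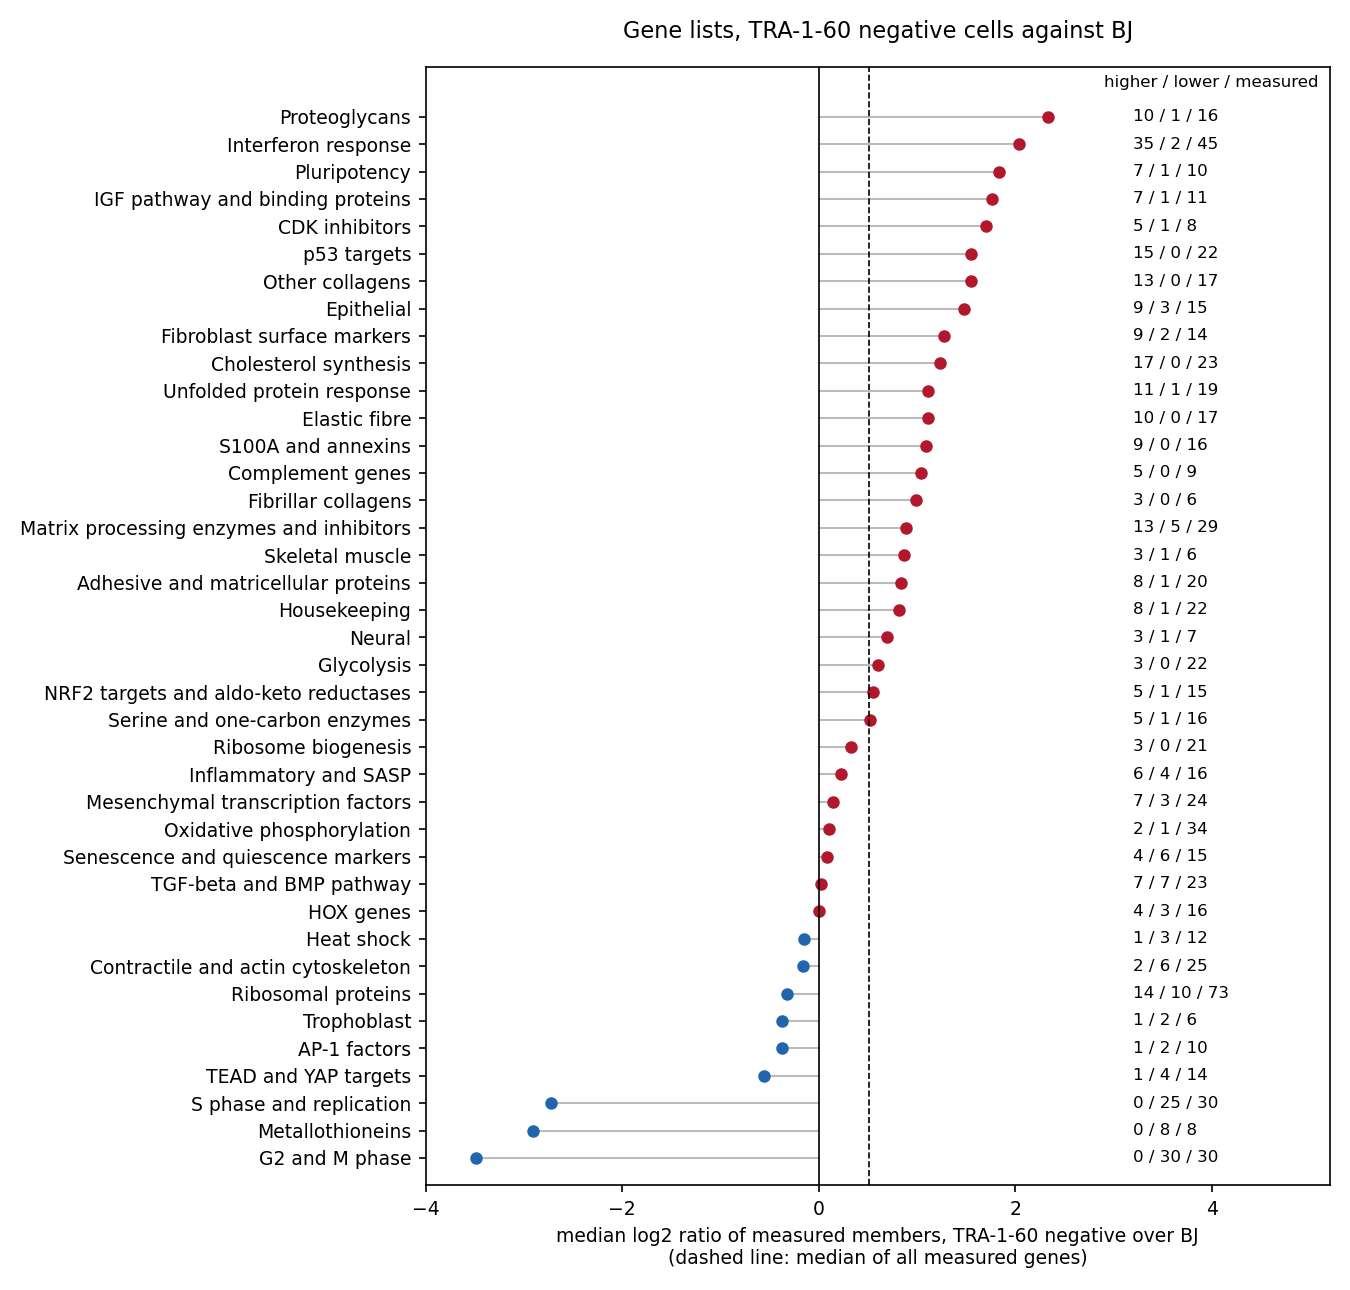
Median log2 ratio (TRA-1-60 negative over BJ) of the measured members of each list with at least 6 of them; the dashed line is the median of all measured genes (0.51), and the numbers at the right count members called higher, called lower and measured. S phase, G2 and M phase and metallothionein genes stood far to the left (medians -2.72, -3.48 and -2.91).

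Of the factors, SOX2, KLF4 and MYC were measured here. SOX2 was present in 71 of 85 negative cells, at 0 to 156 (median 29.8), and in 2 of 92 BJ cells, at 0 to 9.97 (median 0); 62 negative cells lay above every BJ cell. MYC ranged from 0 to 1086 (median 297) in negative cells and from 0 to 553 (median 11.5) in BJ cells, a level 7.52-fold higher in negative cells. KLF4 was present in 56 of 85 negative cells and 29 of 92 BJ cells, 2.8-fold higher in negative cells, and was not called with a pseudocount of 10. Viral and endogenous transcripts cannot be told apart in these values, and OCT4 is not analysed here. Neither SOX2 nor KLF4 was found in 4 of 85 negative cells (4.71%, 1.30% to 11.6%) and 62 of 92 BJ cells (67.4%, 56.8% to 76.8%). COL1A1 and SOX2 were present together in 71 of 85 negative cells and 2 of 92 BJ cells.

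PODXL, which encodes the carrier of the epitope, was higher in the negative fraction than in BJ. It was present in 69 of 85 negative cells, at 0 to 538 (median 41.8), and in 16 of 92 BJ cells, at 0 to 61.4 (median 0); its level in the positive fraction was 130.0. The epitope is a sugar structure, which RNA does not show. Of 31 pluripotency genes, 10 were measured in this comparison, 7 of them higher in negative cells and 1 lower, beside 31.4% higher over all genes. A gene near 0 in BJ is measured only where its level in negative cells is high, so in this list and in those of other cell types the count describes the measured members and does not support a direction of the list. L1TD1, an RNA-binding protein of stem cells, was present in 51 of 85 negative cells and 9 of 92 BJ cells, at levels of 35.4 and 1.29, with 225 in the positive fraction. LEFTY2, an inhibitor of Nodal, was present in 31 of 85 negative cells and listed at 0 in BJ, and 1 negative cell held 4408. NANOG was present in 4 of 85 negative cells and 0 of 92 BJ cells, and LIN28A in 0 and 0. DPPA2, the lower member, was present in 1 cell of each group, and its sign turned when cells with fewer than 4000 genes were left out. At least 3 genes of the list, leaving out PODXL, were present in 47 of 85 negative cells (55.3%, 44.1% to 66.1%) and 11 of 92 BJ cells (12%, 6.12% to 20.4%). The count was 73 of 92 cells at day 8 and 95 of 95 positive cells.

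Markers of other cell types were measured in part. Of 28 epithelial genes 15 were measured, 9 higher and 3 lower in negative cells. JUP (plakoglobin of cell junctions) was present in 84 of 85 negative cells and 7 of 92 BJ cells. KRT8 and KRT18, keratins of simple epithelia, had levels of 49.7 and 986 in negative cells and 4.72 and 289 in BJ. The defining gene CDH1 was listed at 0 in every negative cell, and EPCAM was present in 3 of 85 negative cells and 2 of 92 BJ cells. KRT7 was lower, in 2 of 85 negative cells and 55 of 92 BJ cells. Of 16 keratinocyte genes 4 were measured, and all 4 were called higher. KRT17 was present in 57 of 85 negative cells and 9 of 92 BJ cells. KRT6A lay above every BJ cell in 3 negative cells and KRT14 in 4, and neither was called on the mean of log2 values. Mesendoderm and adipocyte lists had 0 measured members. Of 7 measured neural genes (18 listed) 3 were higher and 1 lower, of 5 endothelial (12 listed) 4 and 0, of 5 blood and immune (16 listed) 3 and 1, of 5 bone and cartilage (14 listed) 2 and 0, of 6 skeletal muscle (12 listed) 3 and 1, of 6 trophoblast (17 listed) 1 and 2, and of 3 melanocyte (10 listed) 0 and 1. The endothelial receptor gene TEK was present in 66 of 85 negative cells and 8 of 92 BJ cells, and the neural growth-cone gene STMN2 was 3.62-fold higher in negative cells. COMP, a matrix protein of cartilage and tendon, was present in 68 of 85 negative cells and 12 of 92 BJ cells.

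In the TGF-beta and BMP pathway 7 of 23 measured genes (24 listed) were higher and 7 lower, 30.4% each, beside 31.4% higher and 13% lower over all genes. GREM1, an antagonist of BMPs, ranged from 0 to 127 (median 0) in negative cells and from 1.72 to 1391 (median 160.1) in BJ cells, a level 31-fold lower in negative cells, 59 of which lay below every BJ cell. ID3 and ID2, targets of BMP signalling, were 3.01-fold and 2.28-fold lower in negative cells; ID2 was not called among cells with 4000 or more genes. BMP4, a ligand, was present in 31 of 85 negative cells and 2 of 92 BJ cells, and the receptor genes BMPR2 and TGFBR2 were 5.43-fold and 4.06-fold higher; BMPR2 was not called when all 96 cells were used. OXTR, the oxytocin receptor, was present in 3 of 85 negative cells and 89 of 92 BJ cells.

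Of 14 genes of the TEAD and YAP list 4 were lower (28.6%) and 1 higher (7.14%), beside 13% lower and 31.4% higher over all genes. CRIM1, which binds BMPs, ranged from 0 to 38.6 (median 2.35) in negative cells and from 3.31 to 312 (median 55) in BJ cells, and 45 of 85 negative cells lay below every BJ cell. The receptor kinase gene AXL was 2.61-fold lower in negative cells. Of 10 measured AP-1 factors (12 listed) JUNB (10%) was 6.67-fold higher in negative cells, and FOSL1 and MAFF (20%) were lower, FOSL1 by 5.14-fold. MAFF was not called with a pseudocount of 10. Among 16 measured inflammatory genes (24 listed) 6 were higher (37.5%) and 4 lower (25%), beside 31.4% and 13% over all genes. CXCL1, which draws neutrophils, was present in 51 of 85 negative cells and 17 of 92 BJ cells, whereas IL6 was present in 2 of 85 negative and 39 of 92 BJ cells, and CXCL12 in 10 of 85 and 69 of 92. Of 9 measured complement genes (12 listed) 5 were higher (55.6%) and 0 lower. CLU (clusterin) was 29.9-fold higher in negative cells.

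Metallothioneins, which bind zinc and copper, were lower in negative cells for all 8 measured genes (9 listed; median -2.91). MT2A ranged from 0 to 4665 (median 572) in negative cells and from 295 to 55234 (median 8346) in BJ cells, a level 13.2-fold lower in negative cells. No negative cell reached the BJ median, and 28 of 85 lay below every BJ cell. MT1E was present in 28 of 85 negative cells and 91 of 92 BJ cells, and MT1X in 38 and 86. On the mean of log2 values 3 of the 8 were called. MT2A was at 6519 at day 2 and 2089 at day 8.

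Enzymes of cholesterol synthesis and uptake were higher in 17 of 23 cases (73.9%, beside 31.4% over all genes) and lower in 0 (median 1.23). MSMO1, a sterol oxidase, ranged from 0 to 793 (median 160.5) in negative cells and from 0 to 729 (median 42.6) in BJ cells, a level 2.47-fold higher in negative cells, with the cells overlapping. At day 8, 14 of 23 of these genes were higher than in BJ, and at day 2, 1 of 22. In the positive fraction 17 of 23 were higher and 1 lower (median 1.88), so the rise was not particular to the negative cells.

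The unfolded protein and integrated stress response had 11 of 19 genes higher (57.9%, beside 31.4% over all genes) and 1 lower (median 1.11). HERPUD1, which helps remove misfolded proteins, ranged from 73 to 2111 (median 729.8) in negative cells and from 0 to 1304 (median 60.7) in BJ cells; all negative cells lay above the BJ median. DDIT4, an inhibitor of mTOR signalling, was present in 69 of 85 negative cells and 22 of 92 BJ cells, a level 34.2-fold higher in negative cells. MANF, a secreted stress protein, was 4.75-fold higher in negative cells. CALR (calreticulin) was 2.03-fold lower, at the edge of the call, which was lost on the mean of log2 values.

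Few genes of glycolysis and oxidative phosphorylation were called. Of 22 glycolysis genes 3 were higher and 0 lower, fewer than the 31.4% over all genes, among them the glucose transporter SLC2A1, 3.26-fold higher in negative cells. GAPDH was not called, at 4255 in negative cells and 7990.1 in BJ. Of 34 genes of oxidative phosphorylation 2 were higher and 1 lower. Among 15 measured NRF2 targets and aldo-keto reductases (16 listed) 5 were higher (33.3%) and 1, HMOX1, lower, with levels of 3.06 in negative cells and 14.4 in BJ and a call lost with a pseudocount of 10. The aldo-keto reductase AKR1C1 was present in 60 of 85 negative cells and 7 of 92 BJ cells, and AKR1C3 in 47 of 85 and 0 of 92. Of 22 housekeeping genes 8 were higher and 1 lower (median 0.82), and of 73 ribosomal protein genes 14 were higher and 10 lower (median -0.32). Over all genes 31.4% were higher and 13% lower. RPL9 and RPS27, among the higher ribosomal protein genes, are table-patterned, at 3440.1 and 7498 at day 2 and 55.3 and 414 at day 8.

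**Figure D5:**
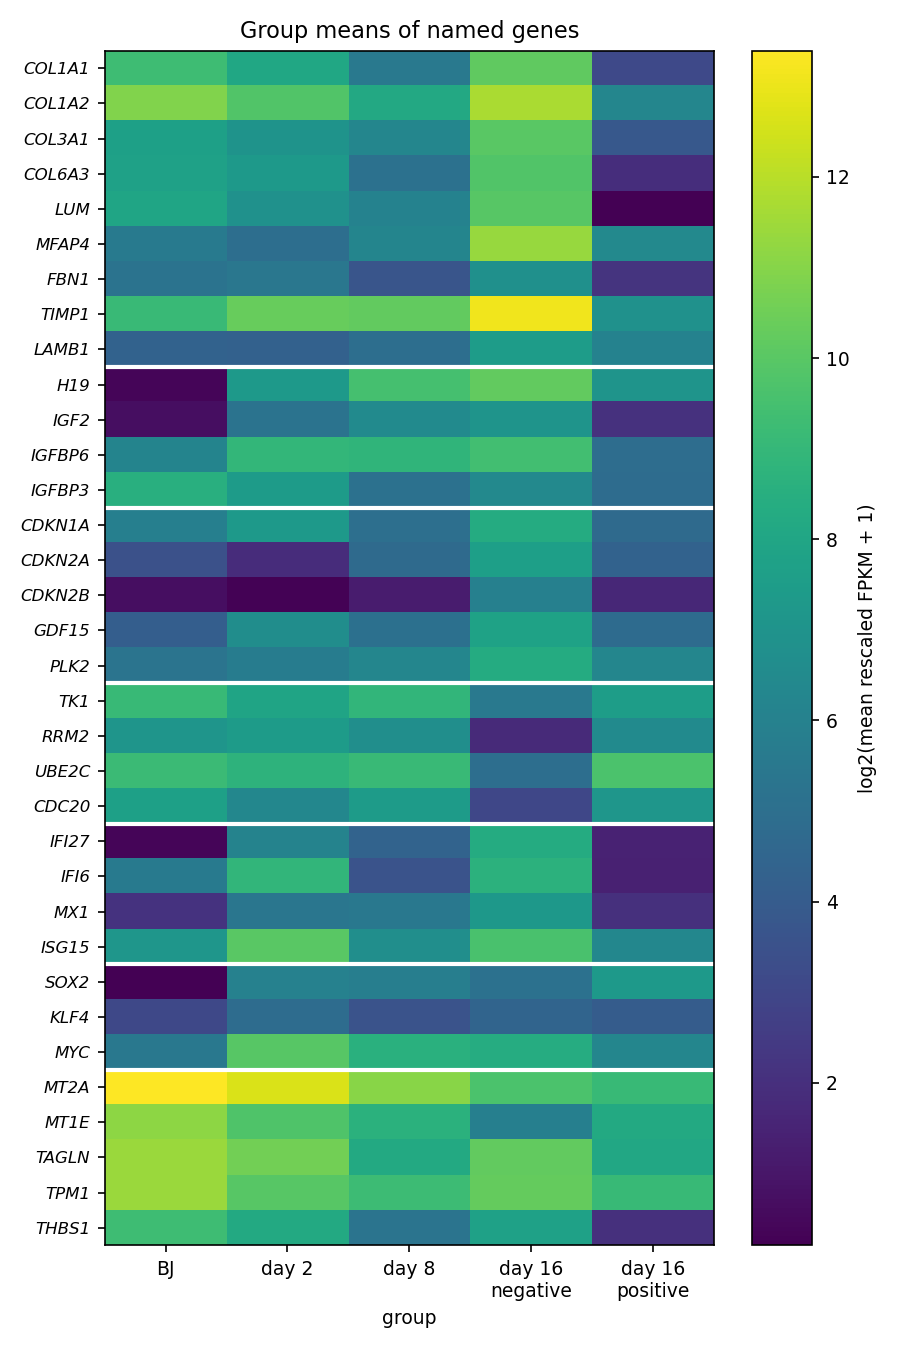
Group means of named genes as log2(mean rescaled FPKM + 1), with BJ and days 2, 8 and 16 (negative and positive fraction) from left to right. Collagens, LUM and TAGLN were low at day 8 and in the positive fraction and higher in BJ and the negative fraction; CDKN2B had its highest mean in the negative fraction.

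Some genes were close to present or absent. In at least 50% of negative cells and at most 5% of BJ cells 52 genes were present, 4 of which are table-patterned. Beside H19, PTHLH, PI16, SOX2 and DPP4 they included SPRY1, an inhibitor of growth factor signalling present in 75 of 85 negative cells and 0 of 92 BJ cells. MGP, which keeps matrix from calcifying, was present in 66 of 85 negative cells and listed at 0 in BJ. The reverse held for 94 genes, 17 of which are table-patterned. They included the mitotic gene CDC20, OXTR, CCBE1 (a secreted lymphatic factor), present in 1 of 85 negative cells and 68 of 92 BJ cells, and the pregnancy-specific glycoprotein genes PSG5 and PSG4. PSG5 was present in 1 of 85 negative cells and 73 of 92 BJ cells. Of the lowest-ranked genes, LOC100505841, GOLGA2P6 and ZNF628 are table-patterned: LOC100505841 was at 25 in negative cells and 13591 in BJ, with 8874 at day 2 and 6.08 at day 8.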

How the data were processed

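Each group is 1 table of 96 single cells. The authors deposited FPKM per gene and cell, 27021 genes in all; STAR, Cuffnorm and hg19 are named in the submitters' processing notes, without versions. The tables hold no counts, so no count test was possible and depth is unknown. Cells were rescaled to 1000000 and kept with at least 2000 genes at 1 or more; doublets could not be called. Levels are means over cells, ratios log2((mean + 1)/(mean + 1)), and no p-value was computed, since cells of 1 culture are not replicates. Shares have exact Clopper-Pearson 95% intervals. The calling step was tested on simulated data with 8-fold changes, in genes with a BJ level of at least 10. Changes of 2-fold and genes of lower level were not simulated. Columns name groups and not single samples. No columns of values were identical.

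The groups, genes and lists were chosen with earlier results of these data known. Genes were named as the 15 highest and 15 lowest by mean log2(value + 1) with a level of at least 10, a 2-fold ratio and shares of cells at least 25 points apart; as the 10 most abundant within 1.2-fold; as up to 4 called members of a list in each direction and members against their list; and as the factors, PODXL and CDK inhibitors. Genes named beyond this, such as COL1A1, FN1, THY1, ACTA2, TMSB10, VIM, MKI67, CDH1, NANOG and MGP, were chosen after their values were seen. Promoters are from RefSeq (GRCh38.p14), matched by symbol, and coordinates are of that build alone. Alternatives changed the scaling, pseudocount, filters, fold and cells. Python 3.11.15, numpy 2.4.6, pandas 2.3.3 and scipy 1.17.1 were used.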

Additional observations from a re-analysis of the deposited data

How the results depend on the processing

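No paired analysis was possible because the columns carry no pairing numbers and no test was made. Of 451 alternative values of 32 main results, 410 stayed within 1.5-fold or the same range, 41 moved and 0 were marked as turned in sign. Most of these results are counts, which have no sign. A median could be marked as turned only where its main value was at least 1 in size. Some of the 410 were fixed in advance. Asking for ACTB or GAPDH left out no cell, and genes under the low-value filter cannot reach the call. Both settings gave 4136 higher and 1710 lower, as in the main results. The medians of the 13 lists followed kept their sign under all 15 settings. Calls came to 2481 higher and 899 lower on the mean of log2 values, 1413 and 562 with a pseudocount of 10, 2408 and 790 with a minimum mean of 10, and 2008 and 973 at 3-fold. On the mean of log2 values the medians were 4.13 for the factors, 1.35 for proteoglycans, 0.53 for elastic fibre genes, 0.58 for CDK inhibitors (3 higher), 1.43 for interferon genes and -0.72 for metallothioneins (3 lower). With a pseudocount of 10 they were 2.12 for the factors, 0.93 for the other collagens (7 higher), 1.12 for proteoglycans, -1.38 for S phase, -2.23 for G2 and M phase, 0.48 for CDK inhibitors (3 higher), 1.11 for interferon genes and -1.08 for metallothioneins (4 lower), and 9 cholesterol genes were higher. The metallothionein median was -3.95 with a pseudocount of 0.1, and that of G2 and M phase -4.20 without the highest cell of each gene. With a minimum mean of 10, 3 CDK inhibitors were higher and 5 metallothioneins lower. At 3-fold, 1 fibrillar and 8 other collagens, 6 elastic fibre and 6 cholesterol genes were higher and 1 contractile gene lower; 1 fibrillar collagen was higher with all 96 cells. The nearest other mean of negative cells, day 2 for 49 and day 8 for 35, turned to 35 and 49 with Spearman's correlation. Counts within 1.5-fold were taken as unmoved, so this turn stands among the 410 values that stayed. Day 8 was nearest for 22 without the genes that split the tables and 18 over genes with a mean of at least 100. BJ was nearest for 2 without the cycle lists. With FPKM as deposited the log2 ratios turned to -0.31 for TCF4, -0.58 for TXNIP and -0.48 for MAP2. DPPA2 turned to 0.10 among cells with 4000 or more genes and 0.098 without cells where 1 gene held over 10%. The blood and immune median (1.42) turned to -1.10 without the highest cell of each gene and -0.71 with a minimum mean of 10. Leaving out the 11 BJ cells with 1 dominant gene, chosen after seeing the data, gave 3948 higher and 1525 lower. Of 229 named genes with a call, 161 kept it under every one of the 13 alternatives that held the gene. The alternative without the genes of the 10-fold table patterns held 216 of the 229. Asking for ACTB or GAPDH left out no cell, and a pseudocount of 0.1 only enlarges ratios, so neither could lose a call. The cause of these moves was not tested. Unknown depth limits low genes: absence from a cell may be a missed molecule.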

Other observations

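Several gene groups outside the questions above were also measured in TRA-1-60 negative and BJ cells. Of 16 genes for serine, one-carbon and nucleotide enzymes 5 were higher in negative cells (31.25%) and 1 lower (6.25%). Over all genes these shares were 31.4% and 13%. The median log2 ratio was 0.52, beside 0.51 for all genes. PHGDH, which opens serine synthesis, ranged from 0 to 1303 (median 323) in negative cells and from 0 to 1465 (median 45.2) in BJ cells, a level 2.76-fold higher in negative cells, with the cells overlapping. PSAT1, the next enzyme, was 2.85-fold higher and ASNS, asparagine synthetase, 2.87-fold. Calcium-binding S100A proteins and annexins had 9 of 16 genes higher (56.25%) and 0 lower. ANXA4 was 3.05-fold higher in negative cells, whereas the abundant S100A6 was not called, at 10504 in negative cells and 7895 in BJ.

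Of 12 measured heat shock genes (14 listed) 1 was higher (8.33%) and 3 lower (25%), beside 31.4% and 13% over all genes. HSPB1, a small heat shock protein that binds actin, was 4.28-fold lower in negative cells, and CRYAB, a relative of it, 6.06-fold. Of 21 ribosome biogenesis genes 3 were higher (14.3%) and 0 lower. MMP11 (stromelysin of stroma around tumours) was present in 60 of 85 negative cells and 2 of 92 BJ cells, and CALCRL, a receptor for adrenomedullin, in 53 and 1. MYH8, the perinatal muscle myosin, was present in 1 of 85 negative cells and 69 of 92 BJ cells.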
